A study of Macaca mulatta with 2 samples.

Results

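Mature oligodendrocyte and myelin genes were examined in RNA-seq of the macaque optic nerve. They were 33 genes named as markers of the finished oligodendrocyte and its sheath, of which 32 were among the 16684 genes of the table, and *FOLH1* was not analysed here. The data were total RNA of untreated, wild-type optic nerves of *Macaca mulatta*, 1 condition with 2 libraries called Rep1 and Rep2. The study's methods give an adult male as the source of the nerves, collected postmortem, whereas the deposited design text speaks of different macaques, so the libraries may come from 1 animal or from 2. Levels are in TPM, reads per gene divided by a gene length and scaled to sum to 1000000 in each library, and paired values give Rep1 first and Rep2 after it. The gene lengths are not given in the sources used here, so the order of levels between genes rests on them, whereas the ratio of a gene between the libraries does not. Each nerve was bulk tissue, in which fewer cells of a type and less RNA per cell cannot be told apart.

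Oligodendrocytes wrap axons of the central nervous system in layers of membrane that are pressed together into compact myelin. In the optic nerve the axons of retinal ganglion cells are bare within the retina and take on this sheath behind the lamina cribrosa. Myelin needs basic proteins that hold the cytoplasmic faces together, tetraspan proteins and claudins that seal the layers, adhesion proteins that face the axon or the outside, and enzymes that feed lipid synthesis. The program is switched on by transcription factors such as MYRF, which acts in cells that already carry SOX10.

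The libraries differed widely and carried 1 condition, so no test between groups was possible, and an SD here is the spread of 2 libraries. Rep1 listed 38.5% of the genes at 0 and Rep2 listed 12.5%. Retinal genes stood apart in Rep1. All 15 genes of a retinal marker list were above 0 there, with a summed level of 5081 TPM, against 13 genes and 24.8 TPM in Rep2, where *CRX* was among those listed at 0. Their part in the lower values of Rep1 given below was not tested. The fewest reads that fit the values, obtained from the ratios of whole read numbers, are lower bounds and summed to 720528 in Rep1 and 11519661 in Rep2.

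The 32 genes lay on 18 chromosomes of Mmul_10, the genome the authors aligned to. *MBP* spanned chromosome 18 from 2932536 to 3086378 on the plus strand with 6 annotated transcripts, and *MOBP* spanned chromosome 2 from 95483063 to 95541951 on the plus strand with 8. *MOG* lay on chromosome 4 from 140555625 to 140570911 on the minus strand, *MAG* on chromosome 19 from 34720235 to 34742356 on the plus strand and *MYRF* on chromosome 14 from 12386429 to 12423099 on the minus strand. For 10 of the 32 genes another listed gene overlapped the span, such as *DNAJC7* at *CNP* and *NF1* around *EVI2A*, both on the opposite strand, and *KLK5* at *KLK6* on the same strand. The overlap is one of whole gene spans, and exons were not compared. The use of strand in counting is not given in the sources used here. Whether reads of such partners were assigned to another gene is therefore unknown.

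The 250 bases before the most upstream annotated start were read from the Mmul_10 genome for all 32 genes and for 20782 protein-coding genes in all. Motifs were searched on both strands. For MYRF the letters were CTGGCAC, or else the closely related form CTGGTAC. For SOX proteins they were ACAAAG, and as a further form of the site AACAAT. The promoters that held a MYRF match and those of the myelin genes *MOBP* and *MAG* are shown, together with that of *NKX6-2*, which held neither motif. Most windows were like the last, since 21 of the 32 held neither motif, among them that of *MBP*, which is not shown. Letters run 5′ to 3′ on the gene's strand and capitals mark the matches, which may show a motif as read on the other strand.
MOBP: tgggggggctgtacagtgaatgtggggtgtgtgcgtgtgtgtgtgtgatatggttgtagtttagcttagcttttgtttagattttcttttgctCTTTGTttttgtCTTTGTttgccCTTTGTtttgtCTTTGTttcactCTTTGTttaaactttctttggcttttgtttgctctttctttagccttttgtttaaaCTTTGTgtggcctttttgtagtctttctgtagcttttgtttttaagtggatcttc
MAG: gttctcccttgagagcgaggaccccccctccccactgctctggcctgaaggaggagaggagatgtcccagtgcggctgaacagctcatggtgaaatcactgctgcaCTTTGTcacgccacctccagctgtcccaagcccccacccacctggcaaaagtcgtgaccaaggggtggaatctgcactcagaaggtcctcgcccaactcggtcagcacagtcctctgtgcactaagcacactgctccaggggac
MOG: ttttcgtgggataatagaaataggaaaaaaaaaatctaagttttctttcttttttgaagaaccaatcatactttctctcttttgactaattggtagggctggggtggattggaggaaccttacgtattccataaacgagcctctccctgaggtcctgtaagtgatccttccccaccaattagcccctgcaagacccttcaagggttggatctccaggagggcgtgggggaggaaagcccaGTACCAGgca
HAPLN2: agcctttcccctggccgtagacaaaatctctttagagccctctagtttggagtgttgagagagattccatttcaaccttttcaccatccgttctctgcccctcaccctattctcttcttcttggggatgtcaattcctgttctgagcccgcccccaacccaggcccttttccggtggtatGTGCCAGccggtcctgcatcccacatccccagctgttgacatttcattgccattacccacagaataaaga
TMEM125: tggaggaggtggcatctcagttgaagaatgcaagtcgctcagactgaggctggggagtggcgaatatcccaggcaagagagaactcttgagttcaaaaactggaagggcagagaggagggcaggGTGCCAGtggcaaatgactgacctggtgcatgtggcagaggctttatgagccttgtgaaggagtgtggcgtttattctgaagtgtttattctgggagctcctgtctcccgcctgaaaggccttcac
NKX6-2: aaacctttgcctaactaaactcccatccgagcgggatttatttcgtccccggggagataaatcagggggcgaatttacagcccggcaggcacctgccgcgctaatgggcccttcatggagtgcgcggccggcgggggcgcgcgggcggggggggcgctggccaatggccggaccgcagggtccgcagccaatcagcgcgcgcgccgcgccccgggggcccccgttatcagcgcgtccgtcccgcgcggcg

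These windows lie at chr2:95482813-95483062 (plus strand) for *MOBP*, chr19:34719985-34720234 (plus strand) for *MAG*, chr4:140570912-140571161 (minus strand) for *MOG*, chr1:94348260-94348509 (minus strand) for *HAPLN2*, chr1:181193912-181194161 (minus strand) for *TMEM125* and chr9:133260292-133260541 (minus strand) for *NKX6-2*. The *MOBP* window held 6 SOX matches, which began 157, 145, 134, 123, 111 and 55 bases before the start, all on the opposite strand. The MYRF letters began 10 bases before the start of *MOG*, 70 before that of *HAPLN2* and 126 before that of *TMEM125*. A MYRF match was found in 3 of 32 promoters (9.38%), against 5.38% of all 20782 promoters. A SOX match was found in 8 of 32 (25%), against 19.0% of all promoters. The shares of the other letters searched were lower than in all promoters, but rest on few windows and were not tested. CAGCTG, an E-box, was in 2 of 32 (6.25%) against 12.03% of all promoters. TATAAA was in 1 of 32 (3.12%) against 9.85%, and GGGCGG in 13 of 32 (40.6%) against 43.7%. CpG dinucleotides were few in many of the windows, with at most 5 in 14 of 32 (43.8%) against 31.9% of all promoters and 25.96% of the 16263 promoters of genes in the table. They ran from 0 in *PMP22* and *EVI2A* to 41 in *MYRF*. A match is a description of letters in this window and not a binding site.

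*MBP* held the first rank in both libraries. Its product is a basic protein that holds the membrane layers of compact myelin together. It stood at 43721 (Rep1) and 199595 TPM (Rep2), a level of 121658 ± 110220 TPM (SD, n = 2). It made up 4.37% of the TPM of Rep1 and 19.96% of that of Rep2, resting on at least 25766 and 2021147 reads. Summed, the 32 genes came to 4.64% of the TPM of Rep1 and 21.7% of that of Rep2, a mean of 13.2% ± 12.04 (SD, n = 2). Without *MBP*, the other 31 took 0.266% in Rep1 and 1.70% in Rep2. Nearly all of what the list took was thus *MBP*, which made up 94.3% of it in Rep1 and 92.1% in Rep2.

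*MOBP*, a small basic protein of compact central myelin, was next, with 997 TPM in Rep1 and 5285 in Rep2, at ranks 159 and 13 of 14693 genes above 0 in at least 1 library. *MBP* exceeded it by 43.8 times in Rep1 and 37.8 times in Rep2, so the gap was of like size in both. *PMP22*, a tetraspan protein best known from Schwann cell myelin, stood at 82.9 (Rep1) and 1373 TPM (Rep2). *CLDND1*, a relative of the claudins, stood at 166 and 969 TPM. *PMP22* was below *CLDND1* in Rep1 and above it in Rep2. *PLLP* and *MAL*, proteolipids of myelin membrane domains, were at 78.7 and 560 TPM and at 23.8 and 160 TPM in Rep1 and Rep2. *CLDN11*, the claudin of myelin tight junctions, was lowest of these 7 membrane genes, at 15.3 (Rep1) and 72.2 TPM (Rep2).

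Among surface and adhesion genes, *MAG* was highest. It encodes a sialic acid-binding protein of the innermost layer that faces the axon, and stood at 116 (Rep1) and 907 TPM (Rep2). *MOG*, the immunoglobulin protein of the outermost layer, was at 31.6 and 160 TPM. *MAG* was above *MOG* in both libraries, by 3.66 times in Rep1 and 5.65 times in Rep2. *HAPLN2*, a link protein of the matrix at nodes of Ranvier, stood at 40.3 (Rep1) and 278 TPM (Rep2). *TMEM125* stood at 33.6 and 108 TPM and *NINJ2*, an adhesion protein, at 11.2 and 61.0 TPM. *TMEM63A*, a mechanosensitive channel, was lower, at 5.99 and 31.2 TPM, as were *EVI2A* at 2.13 and 24.5 TPM and *OPALIN*, a membrane protein particular to oligodendrocytes, at 1.40 and 21.3 TPM. *OPALIN* is often used as a marker of the mature cell, yet it was at percentile 39.2 in Rep1 and 61.9 in Rep2.

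The receptors and enzymes covered a wide range. *LPAR1*, a receptor for lysophosphatidic acid, was at 14.6 (Rep1) and 99.1 TPM (Rep2), and *ENPP2*, the secreted enzyme that makes this lipid, at 11.2 and 92.2 TPM. *ERBB3*, a receptor for neuregulins, was at 2.96 and 29.1 TPM. *QDPR*, which regenerates tetrahydrobiopterin, was the most abundant enzyme gene, with 230 (Rep1) and 1781 TPM (Rep2). *SIRT2*, a deacetylase of tubulin, stood at 85.2 and 473 TPM. *CNP*, the cyclic nucleotide phosphodiesterase of noncompact myelin, stood at 46.6 and 325 TPM, and *KLK6*, a secreted serine protease, at 21.2 and 224 TPM. *ASPA*, which frees acetate from N-acetylaspartate for lipid synthesis, was at 2.36 (Rep1) and 32.5 TPM (Rep2), and *CARNS1*, the carnosine synthase, at 2.66 and 11.5 TPM. The enzymes of the list thus lay between percentiles 44.7 and 99.2 on the mean.

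*GSN*, the actin-severing gelsolin, led the cytoskeletal genes with 371 (Rep1) and 2456 TPM (Rep2). *PPP1R14A*, an inhibitor of myosin phosphatase that smooth muscle also makes, stood at 127 and 641 TPM, and *ERMN*, a cytoskeletal protein of myelin, at 88.4 and 436 TPM. *ANLN*, an actin-binding scaffold of the sheath, was at 12.6 and 151 TPM and *PLEKHH1* at 6.61 and 70.1 TPM. *TPPP*, which bundles microtubules, was the lowest of all 32, at 0.772 (Rep1) and 8.45 TPM (Rep2). Of the transcription factors, *NKX6-2*, a homeobox gene of the mature cell, stood at 29.8 and 165 TPM, above *MYRF* in both libraries, which was at 2.68 and 21.5 TPM.

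**Figure D1:**
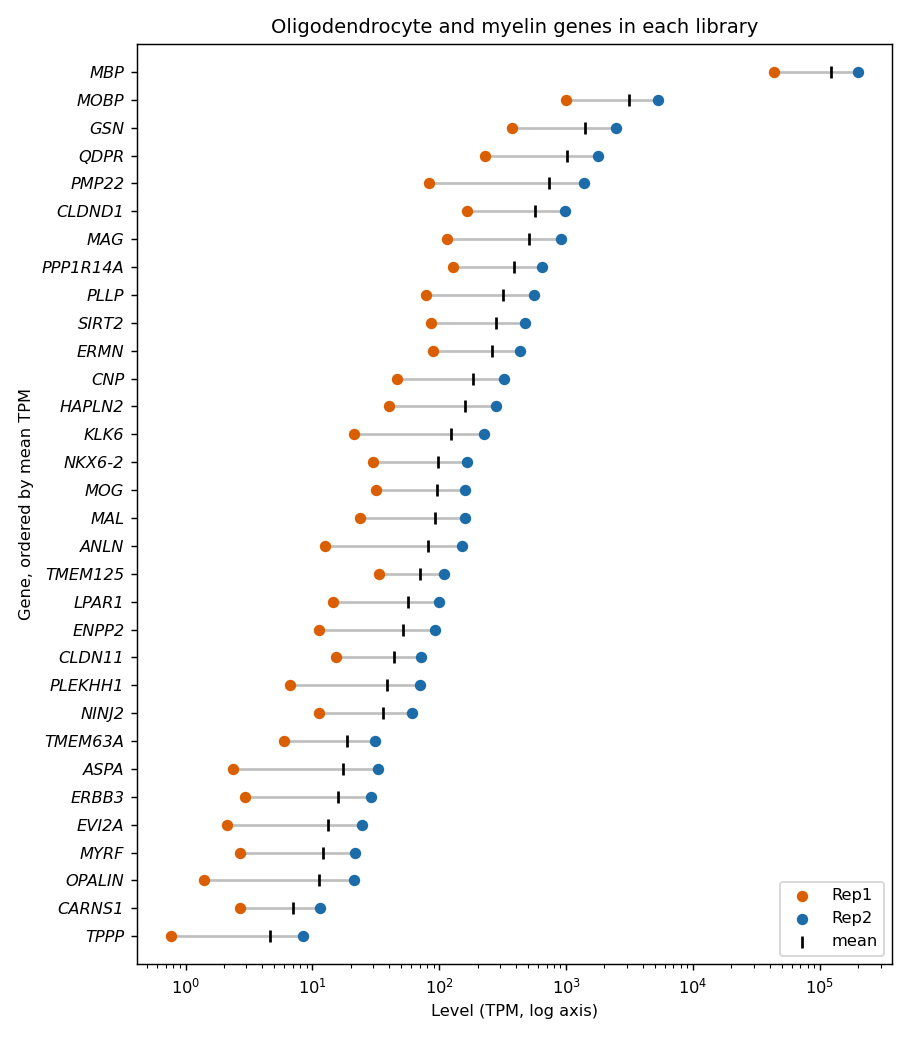
Level of the 32 genes in TPM on a log axis, with Rep1 (orange) and Rep2 (blue) as points and their mean as a black tick, ordered by mean from *MBP* to *TPPP*. In each of the 32 genes the Rep1 point lies to the left of the Rep2 point, from 3.22-fold in *TMEM125* to 16.6-fold in *PMP22*.

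The list stood high among all genes. Ranked among the 14693 genes, its median percentile was 88.2 on the mean, 78.0 in Rep1 and 94.0 in Rep2. On the mean, 11 of 32 genes were in the top 5% of genes. In Rep2, 14 were in the top 5%, and in Rep1 only *MBP*, *MOBP* and *GSN* were. *CARNS1* and *TPPP* were below the median gene on the mean. None of the 32 was listed at 0 in either library, whereas among the 8180 genes at or above the Rep2 level of *TPPP* 9.06% were listed at 0 in Rep1. The reads behind the values are known only as lower bounds, which do not follow the level and are no read counts. In Rep1 the bound was at least 10 for 17 of the 32 genes, with 419 reads for *MOBP*, 68 for *MAG* and 54 for *MOG*, and for the other 15 it does not tell how many reads there were. In Rep2 it was at least 74 for each of the 32.

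All 32 genes were lower in Rep1, as were 75.9% of the 14693 genes. Differences were taken on log2(TPM + 1), where those of low genes come out too small. On it, 32 of 32 were at least 2-fold lower in Rep1, against 51.3% of the 14693 genes, and 0 were at least 2-fold higher, against 14.8%. Among the 11754 genes whose mean reached 1 TPM, to which all 32 belong, 71.9% were lower in Rep1, 58.7% at least 2-fold lower and 18.2% at least 2-fold higher. The median difference (Rep1 minus Rep2) was -2.69, against -1.07 over all genes and -1.52 over the genes whose mean reached 1 TPM. Over the 9127 genes with a mean at or above that of *TPPP*, the lowest member, it was -1.42. The members ran from -4.03 in *PMP22* to -1.66 in *TMEM125*. When the libraries were scaled by their median of ratios, a shift of -1.19 for Rep1, this left a median of -1.56 in the list and -0.38 over all genes, and 32 of 32 were still lower in Rep1, against 64.8% of genes. With that scaling 29 were at least 2-fold lower, against 33.8% of genes, and 0 were at least 2-fold higher, against 23.7%. The members under 2-fold were *MBP* at -0.999, *TMEM125* at -0.49 and *CARNS1* at -0.77.

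The groups by role moved alike. The median difference was -2.54 in the 7 membrane genes, -2.55 in the 8 surface genes, -2.80 in both receptors, -2.94 in the 7 enzymes, -2.57 in the 6 cytoskeletal genes and -2.52 in both transcription factors. The differences were close to each other gene by gene as well. Their SD over the 32 genes was 0.50, against 1.95 over all genes and 2.32 over the 9127 genes with a mean at or above that of *TPPP*. In 30 of 32 genes the difference lay within 1 log2 unit of the list's median, where 31.3% of all genes lay. The exceptions were *PMP22* and *TMEM125*. The 17 members with a bound of at least 10 reads in Rep1 had a median of -2.70 and an SD of 0.45. Taken over the 32 genes, levels in the libraries correlated with r = 0.986 (Pearson, log2) and rho = 0.973 (Spearman), and over all genes with 0.708 and 0.719. Without *MBP* the Pearson r was 0.977. These are correlations across genes of the same libraries, with their shared depth, and genes are not independent replicates.

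**Figure D2:**
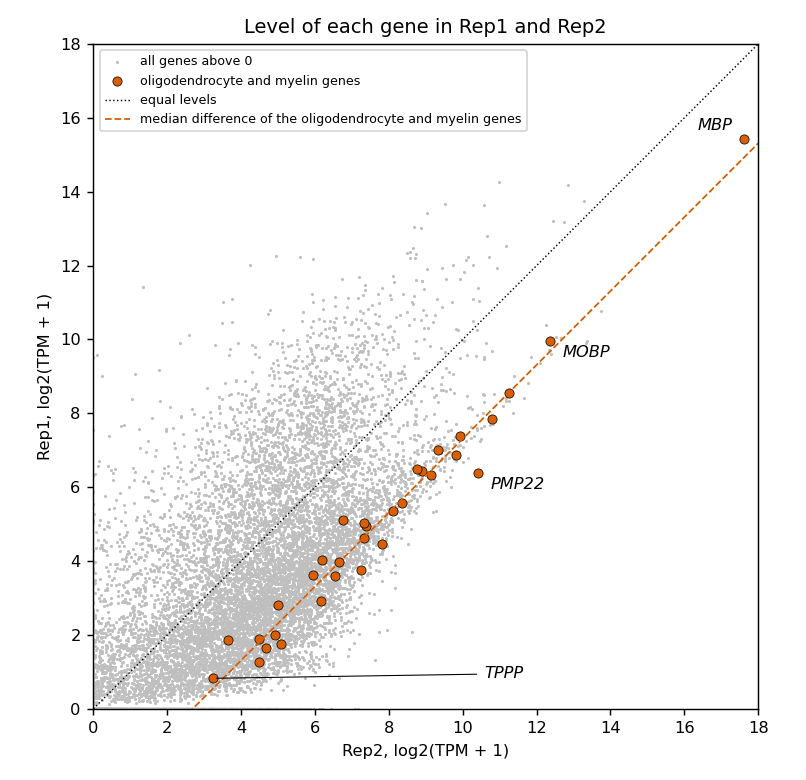
Rep1 (vertical) against Rep2 (horizontal) in log2(TPM + 1) for all genes above 0 in at least 1 library (grey) and the 32 oligodendrocyte and myelin genes (orange). The dotted line marks equal levels and the dashed line the members' median difference of -2.69, along which they lie with an SD of 0.50.

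The order of the genes was much the same in both libraries. Of the 496 pairs of members, 465 (93.8%) stood in the same order in Rep1 and Rep2, against 71.0% of all pairs of genes. Pairs tied in a library counted as not in the same order, which lowers the share over all genes. Of the 14693 genes, 30.2% were listed at 0 in Rep1 and so tied there, whereas no member was. Order within a library does not depend on how that library is scaled. Set against the SD of a single library, estimated for each gene from the 200 genes closest to it in level, 333 of the 496 pairs differed by more than 1 SD. The general difference between the libraries was not removed from this SD, which makes it wider. Neighbours in the order of mean level were mostly not set apart by this measure. Only *MBP* and *MOBP*, 2.97 SDs apart, differed by more than 1 SD among the 31 neighbouring pairs. The next largest gap was 0.700 SDs, between *MOBP* and *GSN*, and 18 of the 31 pairs kept their order.

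The make-up of the list without *MBP* was compared as the share of each gene in the summed TPM of the other 31. *MOBP* held 37.5% in Rep1 and 31.0% in Rep2, *GSN* 13.9% and 14.4%, *QDPR* 8.65% and 10.5%, and *CLDND1* 6.24% and 5.69%. The 10 genes of highest mean after *MBP* made up 88.0% in Rep1 and 87.4% in Rep2. For 21 of the 31 genes the shares in the libraries were within 1.5 times of each other. For 3 genes they were over 2 times apart. *PMP22* held 3.11% in Rep1 and 8.07% in Rep2, *ASPA* 0.0886% and 0.191%, and *OPALIN* 0.0527% and 0.125%. Each of these was lower in Rep1. Of the 3, *PMP22* rested on at least 61 reads there, and for the others the lower bound was 1 read.

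**Figure D3:**
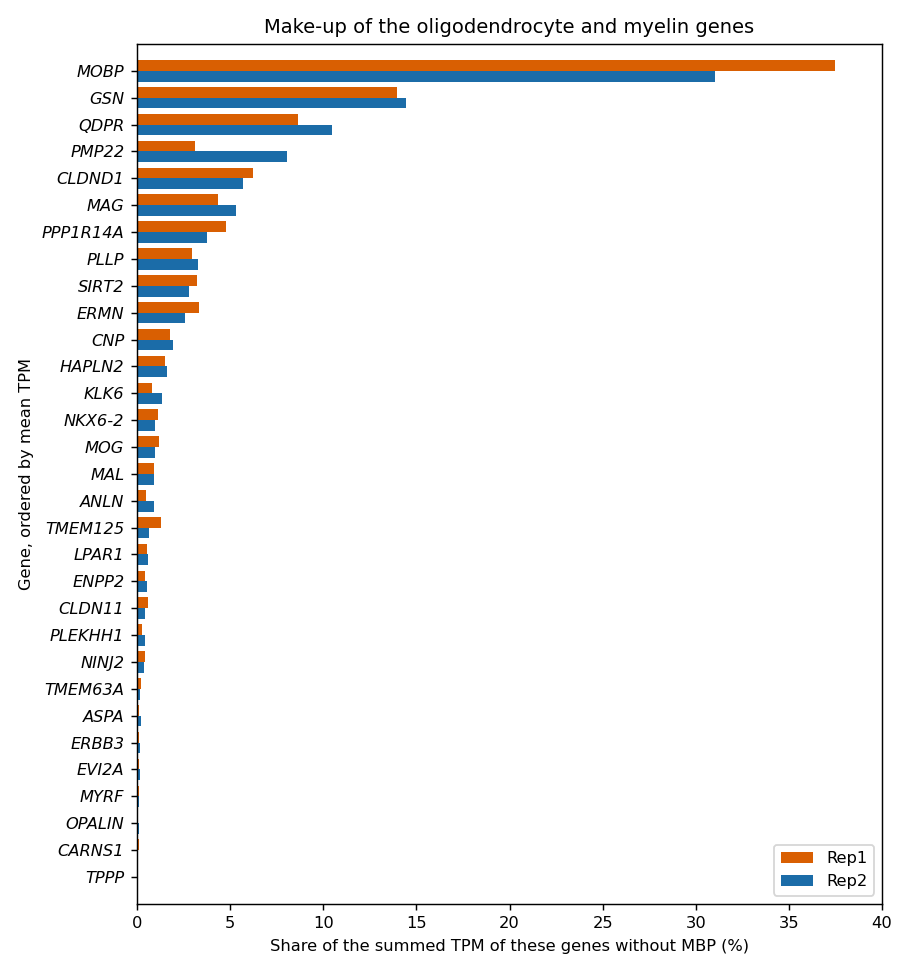
Share of each gene, in percent, in the summed TPM of the 31 oligodendrocyte and myelin genes other than *MBP*, for Rep1 and Rep2. *MOBP* holds 37.5% and 31.0%, and *PMP22*, with 3.11% and 8.07%, differs most as a ratio.

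*PMP22* is also made by Schwann cells and fibroblasts, so the markers of these cells were set beside it. Of 10 Schwann cell markers, 4 were above 0 in Rep1, with a summed level of 19.4 TPM, and 10 in Rep2, with 121 TPM. Listed at 0 in Rep1 were 6 of them, *MLIP*, *CDH19*, *PRX*, *NCMAP*, *FOXD3* and *DHH*. *EGR2* was higher in Rep1, at 13.5 TPM, than in Rep2, at 4.87 TPM. All 8 fibroblast markers were above 0 in both libraries, and their sum was 1887 (Rep1) and 16755 TPM (Rep2). The part of either cell type in *PMP22* was not tested.

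Other genes of the oligodendrocyte were taken from a list of 47, of which 43 were in the table and 42 above 0. Of these 42, 28 were at least 2-fold lower in Rep1 and 4 at least 2-fold higher, where 51.3% and 14.8% of all 14693 genes were. Their median difference was -1.98 and their SD 1.63, wider than in the myelin genes described above. *PLEKHB1*, a membrane-bound protein, stood at 1060 (Rep1) and 6463 TPM (Rep2), and *BCAS1*, which marks newly myelinating cells, at 247 and 1349 TPM. *CRYAB*, a small heat shock protein, stood at 958 and 1594 TPM, and its difference of -0.73 turned to 0.46 after scaling by the median of ratios. The following 6 genes were chosen after their values were seen. *TUBB4A*, a tubulin of oligodendrocytes, stood at 168 and 1277 TPM. *UGT8*, which makes galactosylceramide, was at 4.84 and 24.5 TPM, *FA2H*, the fatty acid hydroxylase, at 3.86 and 46.9 TPM and *GAL3ST1*, the sulfatide sulfotransferase, at 3.01 and 51.8 TPM. *CERS2*, a ceramide synthase of many tissues, was at 212 (Rep1) and 210 TPM (Rep2). *SOX10*, the lineage factor, was at 6.31 (Rep1) and 14.4 TPM (Rep2). Its difference of -1.07 became 0.0031 with that scaling. The 4 genes that were at least 2-fold higher in Rep1, chosen after their values were seen, were *GPM6B*, at 1270 and 493 TPM, *FYN*, at 328 and 162 TPM, *TCF7L2*, at 92.8 and 20.3 TPM, and *OMG*, at 57.5 and 16.8 TPM. All 4 are also expressed in neurons or other cells, as are further genes of this list, and the source of their RNA was not tested. *ZNF488*, *NKX2-2*, *GJC3*, *ADAMTS4*, *GPR17* and *CD9* were listed at 0 in Rep1 and above 0 in Rep2, and *GPR17*, which marks precursors about to differentiate, was at 0.940 TPM there.

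Ratios to other cell types were compared within each library, where scaling has no part. The summed level of the 31 genes without *MBP* was 2.43 times that of 8 astrocyte markers in Rep1 and 2.32 times in Rep2. Against 8 fibroblast markers it was 1.41 times in Rep1 and 1.02 times in Rep2, and against 8 endothelial and mural markers 15.99 and 20.6 times. These 3 ratios differed by less than 1.5 times between the libraries. Against 8 markers of microglia and macrophages it was 11.9 times in Rep1 and 34.6 times in Rep2, and against 8 markers of oligodendrocyte precursors 14.0 and 47.3 times. Against 8 neuronal markers it was 1.25 times in Rep1 and 10.8 times in Rep2. Against the 15 retinal genes it was 0.524 times in Rep1 and 687 times in Rep2. Some of these ratios rest on few genes. The astrocyte sums of 1098 (Rep1) and 7329 TPM (Rep2) were mostly *GFAP* (658 and 4331) and *S100B* (323 and 2299). Single astrocyte markers differed more, such as *AQP4* (-6.55), or less, such as *SLC1A2* (-0.96). *DCN* made up 995 of 1887 TPM of the fibroblast sum in Rep1 and 10504 of 16755 in Rep2. *ACTA2* made up 83.2 of 167 TPM of the endothelial and mural sum in Rep1 and 498 of 825 in Rep2. The neuronal sum of 2127 TPM in Rep1 was mostly *SNAP25* (1122) and *SYT1* (769). That of 1582 TPM in Rep2 was mostly *THY1*, at 1535 TPM there and 203 TPM in Rep1. Of the precursor sum, *LHFPL3* made up 86.2 of 190 TPM in Rep1 and 5.16 of 360 TPM in Rep2. The microglia and macrophage sum of 224 TPM in Rep1 was mostly *AIF1* (113) and *CSF1R* (61.3). In Rep2 these stood at 64.5 and 62.2 of 492 TPM. Of the 8 markers of this list, 6 were at least 2-fold lower in Rep1 and 0 at least 2-fold higher. The median difference between the libraries was -2.62 in astrocyte markers, -2.61 in those of microglia and macrophages, -2.84 in fibroblast markers and -2.15 in endothelial and mural markers, against -2.69 in the 32 genes. It was -1.65 in Schwann cell markers, -0.92 in those of oligodendrocyte precursors, -0.012 in neuronal markers and 5.90 in the retinal list. Differences near 0 TPM come out too small, and 4 of 10 Schwann cell and 5 of 8 precursor markers were above 0 in Rep1. The precursor median lay between *GPR17* and *PCDH15*, both at 0 in Rep1 and at 0.940 and 0.858 TPM in Rep2. Of the precursor markers above 0 in both libraries, *PDGFRA* (-4.33), *VCAN* (-2.55) and *PTPRZ1* (-2.20) were lower in Rep1. *SOX6* (0.72) and *LHFPL3* (3.82) were higher there.

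**Figure D4:**
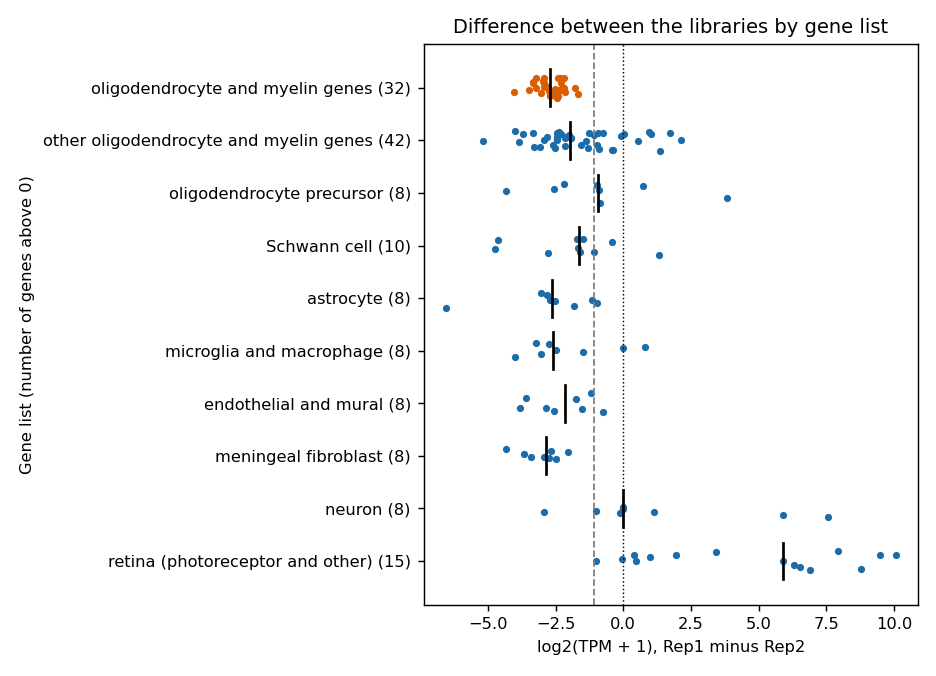
Difference between the libraries in log2(TPM + 1), Rep1 minus Rep2, for each gene of the 32 and of 9 other lists, with the list median as a black bar, the median of all genes (-1.07) dashed and 0 dotted. The 32 oligodendrocyte and myelin genes lie between -4.03 and -1.66, and 13 of 15 retinal genes lie above 0.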

How the data were processed

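The deposited table holds TPM of 2 libraries of macaque optic nerve, prepared with a SMARTer v4 low-input kit. The authors trimmed reads with Trim Galore 0.6.6 after FastQC 0.11.9, aligned them with STAR 2.7.1a to Mmul_10 with RefGene annotation, counted them with featureCounts 1.5.3 and normalized the counts to TPM. Column names Rep1 and Rep2 could not be tied to sample titles and served as unpaired replicates. Amplification means that reads are not independent molecules.

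From the TPM, levels, ranks, shares and differences on log2(TPM + 1) were computed in Python 3.11 (pandas 2.3.3, scipy 1.17.1, numpy 2.4.6), and matplotlib 3.10.9 drew the figures. Percentiles refer to genes above 0 in at least 1 library. The fewest reads came from ratios of the libraries' values, written as whole numbers with a tolerance of 1e-12, and 99.9% of 10168 genes gave a product under 100000000. The methods were tested on simulated data. Promoters and loci came from the RefSeq annotation of Mmul_10. No p-value was computed. By rule every listed member was named. For each further list the rule called for up to 5 genes of highest mean and defining genes listed at 0. Only some of these are named here. Some alternatives were tried, and their effect is given in the closing section. The members and lists were chosen with earlier results of these data known. Single values of other genes are left out.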

Additional observations from a re-analysis of the deposited data

How the results depend on the processing

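No paired analysis was possible because only 1 condition was sequenced. The mean levels of all 32 genes moved by less than 1 SD under scaling by the median of ratios, without the 10 most abundant genes and with either library alone, but an SD of 2 libraries is wide and each library always lies within it. The list took 4.64% to 21.7% of all TPM and *MBP* held 92.1% to 94.3% of the list with either library alone. The number of genes in the top 5% ran from 3 to 14 and the median percentile from 78.0 to 94.0, the lower values coming from Rep1. The median log2 difference was -1.56 under the median of ratios and ran from -2.95 to -2.69 with a pseudocount of 0.1, other denominators and a filter on low values. The following alternatives were chosen after seeing the data. Of the 17 genes with a lower bound of at least 10 reads in Rep1, 17 were at least 2-fold lower there. Without *MBP*, the list took 0.984% of all TPM on the mean. The depth behind the other 15 genes in Rep1 is unknown, since their lower bounds are under 10 reads.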
